A study of Mus musculus with 16 samples.

Results

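Cd9 and 6 other tetraspanins of white blood cells (Cd81, Cd82, Cd37, Cd53, Cd63 and Cd151) were followed through 8 samples of mouse follicular B cells. They were found by gene symbol in the annotation of a dual-colour Agilent mouse array, where they had 10 of 41174 probes. Of these, 9 probes passed the filter on dim probes, so that all 7 genes were among the 20464 tested. Cd9 was chosen by its measured level in the Auto.Pos samples, and its values are therefore a description with no test. On its mRNA probe Cd9 was 6.22-fold higher in Auto.Pos than in Auto.Neg cells, 3.98-fold higher than in wild type and 5.7-fold higher in Edited than in Non-edited cells. None of the other 6 tetraspanins was called different in any comparison of replicated groups. Over all genes 0.0147% were called between Auto.Pos and Auto.Neg, all of them lower in Auto.Pos, and 0% in each comparison with wild type. No gene, Cd9 included, was called higher in Auto.Pos. A missing call therefore does not show that a gene is unchanged.

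Follicular B cells are the mature recirculating B cells of the lymphoid follicles, and all samples came from C.B17 mice. Auto.Neg (n = 2) cells came from ATAμκTg mice, whose transgenic VH3609μ and Vk21-5κ chains form a receptor for Thy-1, on a Thy-1 knockout background that takes the antigen away. Auto.Pos (n = 2) cells came from AGcAμκTg mice, whose VH3609μ and Vk19-17κ chains form a receptor against intestinal goblet cells, although a further label field gives the light chain as Vkappa17-17kappa. WT (n = 2) mice were wild type. For Non-edited and Edited cells (1 sample each) the mice lacked Thy-1 and were VH3609t +/- and Vk21-5Tg +/-, where editing is the usual term for the exchange of a receptor chain by further rearrangement. Age, the promoters of the transgenes and any pooling of mice are not stated in the labels. The labels do not tie samples to single mice, so p-values here reflect a spread that may be technical, and in bulk samples a larger number of expressing cells and more RNA per cell cannot be told apart.

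Tetraspanins are small membrane proteins with a pair of extracellular loops that gather integrins, immune receptors and each other into microdomains of the membrane. CD81 takes part in B cell coreceptor signalling, CD37 and CD53 are found mainly on leukocytes, CD82 and CD151 bind integrins, and CD63 marks late endosomes and exosomes. CD9 takes part in adhesion and cell fusion, is abundant on platelets, and among mouse B cells marks marginal zone B cells, B-1 cells and plasma cells more than follicular B cells.

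The unit throughout is the log2 ratio of sample over the shared reference, a mixture of RNA from 6 cell lines (P388d, DN3, EL4, J558, RS2 and R1), with the 2 arrays of a dye-swap pair averaged. By the mark that the scanner software sets, the sample channel stood well above background for 61.9% to 81.9% of probes per array, and the arrays of a pair correlated at 0.906 to 0.97 across probes. The 9 tested B cell markers were well above background on all 16 arrays, with a mean ratio of 4.25 to 5.14 per sample. There were 7 slides and 4 scan days, and Auto.Neg sample 2 and Auto.Pos sample 1 shared slide 2. These samples of different groups correlated at 0.978 across genes, while the samples of a group correlated at 0.903 (Auto.Neg), 0.904 (Auto.Pos) and 0.923 (WT). Each replicated group had 1 sample under each of 2 extraction protocols of the scanner software, so differences are also given inside each protocol where a result turns on them. There were 2 scanners, and Auto.Neg sample 2 and Auto.Pos sample 1 were read on scanner 1 and all other samples on scanner 2, so that inside the earlier protocol WT sample 1 differed from both in scanner, software version, slide and scan day. A kappa chain unit (ENSMUST00000089814), chosen after its values were seen, read 6.69 and 7.24 (Auto.Neg), -0.50 and -0.24 (Auto.Pos), 4.14 and 3.67 (WT), 6.95 (Non-edited) and 6.0 (Edited). On it both Auto.Pos samples lay below all other samples. Because the unit was picked by its values, it cannot serve as a check of the attribution by the scanner files, which is used throughout.

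Cd9 had 3 probes, all 60 bases long, whose opening 30 bases are shown here because the probes gave different readings. They are written 5′ to 3′ in lower case with no part marked.
Cd9, mRNA NM_007657: cctgcaatgaaaggtactatatttgccaga
Cd9, clone AK038228: gctgagttctttgtagactctatgcagttt
Cd9, clone AK080546: aggtgctaatctgagcagttctactttgct
In the files' build mm7 the mRNA probe lies at chr6:125482335-125482394, the AK038228 probe at chr6:125498919-125498978 and the AK080546 probe at chr6:125518032-125518091. The last 2 lie 16.6 kb and 35.7 kb from the mRNA probe, and RefSeq in GRCm38.p6 gives Cd9 a length of 34495 bases on the minus strand. The coordinates of the AK080546 probe run up while those of the other Cd9 probes run down. The files describe AK038228 as an unclassifiable thymus clone and AK080546 as a CD9 clone from cerebellum. No annotation in mm7 was used here, so the exon, intron or UTR of each probe is not given.

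On the mRNA probe Cd9 read 3.57 and 2.99 (Auto.Neg), 5.89 and 5.94 (Auto.Pos), 3.83 and 4.02 (WT), 2.78 (Non-edited) and 5.29 (Edited). Both Auto.Pos samples and the Edited sample lay above all 5 others, and the replicated groups did not overlap. The group means were 3.28 ± 0.407 in Auto.Neg, 5.92 ± 0.036 in Auto.Pos and 3.92 ± 0.132 in WT (SD, n = 2 each). In order from the highest, the Auto.Pos samples were 0.05 apart, the Edited sample followed after a gap of 0.60, and the WT samples after a further gap of 1.27. WT sample 1 and Auto.Neg sample 1 were 0.26 apart, close to the pooled residual SD of 0.248 within groups. Auto.Neg sample 2 and the Non-edited sample were 0.21 apart, within that spread.

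**Figure D1:**
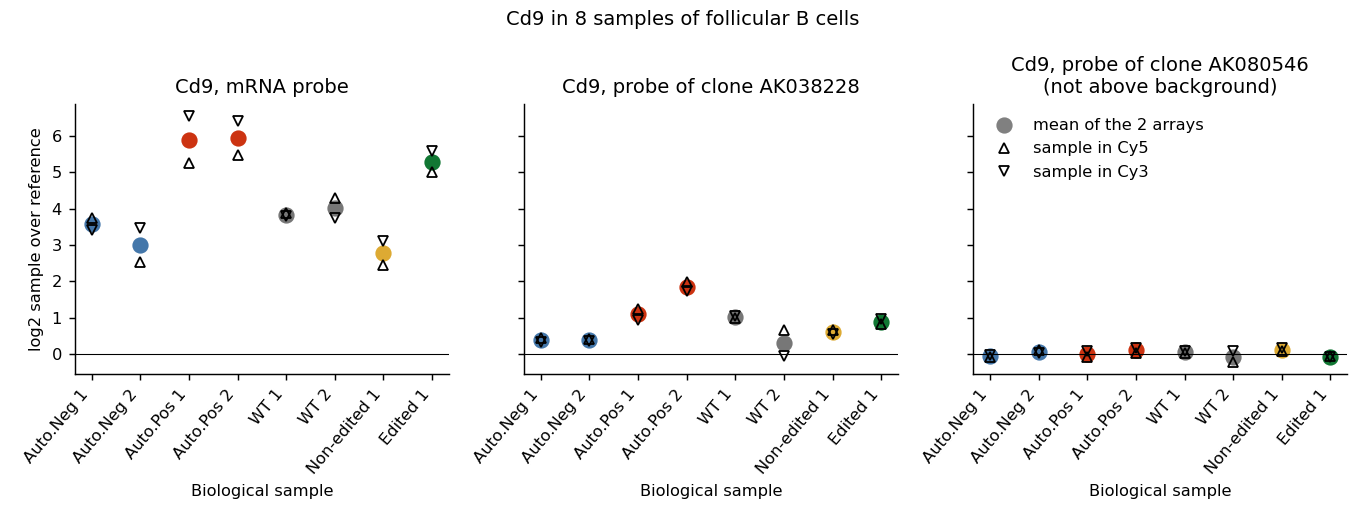
Log2 ratio of sample over reference (vertical axis) for the 3 Cd9 probes in each of the 8 samples (horizontal axis); filled points are the mean of the 2 arrays of a sample, and open triangles the single arrays with the sample in Cy5 or Cy3. On the mRNA probe the Auto.Pos samples (5.89 and 5.94) and the Edited sample (5.29) stand above the others, the AK038228 probe reads at most 1.86, and the AK080546 probe, which was not well above background on any array, stays near 0.

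The single arrays behind these means differed by dye. In Auto.Pos the arrays with the sample in Cy3 read 6.54 and 6.41 and those with the sample in Cy5 read 5.25 and 5.47. In Auto.Neg they read 3.40 and 3.46 in Cy3 and 3.73 and 2.52 in Cy5. In WT they read 3.79 and 3.74 in Cy3 and 3.87 and 4.29 in Cy5. In either dye, every Auto.Pos array read above every Auto.Neg, WT and Non-edited array.

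The mRNA probe was well above background in the sample channel on 16 of 16 arrays and in the reference channel on 0 of 16. The ratio of Cd9 therefore compares the sample with the background of the reference channel and does not measure the content of the reference RNA. Channel intensities in this report were rebuilt from the normalized ratio and the mean intensity of both channels, scaled between arrays. They are therefore not independent of the ratio. In the sample channel alone the log2 intensity of Cd9 was 10.27 and 9.03 (Auto.Neg), 11.83 and 12.09 (Auto.Pos), 9.93 and 10.08 (WT), 9.37 (Non-edited) and 11.64 (Edited). The Auto.Pos and Edited samples were again the highest, whereas the Auto.Neg samples now lay on both sides of the WT samples. The reference channel of the same probe ran from 5.93 to 6.71.

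**Figure D2:**
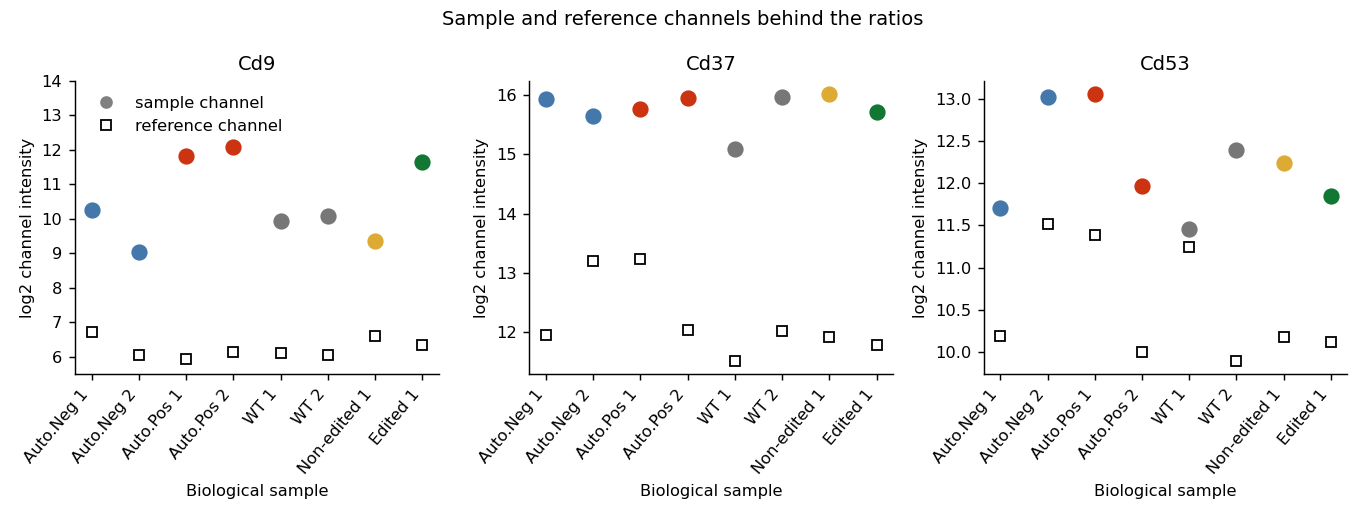
Log2 channel intensity (vertical axes, which differ in range and do not start at 0) of the sample channel (filled points, coloured by group) and the reference channel (open squares) for Cd9, Cd37 and Cd53 in the 8 samples. For Cd9 the reference channel stays between 5.93 and 6.71 and the sample channel carries the differences, while for Cd37 and Cd53 the reference channel is raised in both slide 2 samples and, for Cd53, in WT sample 1.

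Auto.Pos against Auto.Neg asks how B cells with and without contact to their antigen differ, and the groups also differ in light chain, antigen and the Thy-1 knockout, which cannot be told apart here. Cd9 was higher in Auto.Pos by 2.64, a 6.22-fold difference. The difference was 2.90 inside the earlier protocol, which is also slide 2 and scanner 1, and 2.38 inside the later protocol. It ranged from 0.41 to 3.04 over the 14 of 22 alternative settings that could change it, and the low end was the deposited series table read by its column labels. Another array than the labelled one was the best match for 10 of its 16 columns, and for 2 Auto.Pos, 2 Auto.Neg and 2 WT columns that array belonged to another group. Of the other 6 tetraspanins, Cd53 was higher in both Auto.Pos samples than in both Auto.Neg samples and 0 were lower, where 19.2% of all genes did not overlap between these groups (11.1% higher, 8.18% lower). Cd9 did not overlap either, but it was chosen by its level in Auto.Pos and is not counted here.

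Against WT, Cd9 was higher in Auto.Pos by 1.99, a 3.98-fold difference. Inside the earlier protocol, across scanners, the difference was 2.06, and inside the later protocol, where both samples also shared scan day 3, it was 1.93. Alternative settings gave 0.68 to 2.71, again lowest in the series table read by its labels. Of the other 6 tetraspanins, Cd81 and Cd151 were lower in both Auto.Pos samples than in both WT samples and none was higher, where 29.6% of all genes did not overlap (19.2% higher, 10.4% lower). Cd9, again not counted because of its choice, was higher in both Auto.Pos samples. Both comparisons share the Auto.Pos samples and are not independent.

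Between Auto.Neg and WT the mean of Cd9 differed by -0.64, with values of -0.84 and -0.45 inside the protocols. This difference changed sign with the background offset at 0 (0.043), with the scanner software's own log ratio (0.19) and with the series table by its labels (0.28). Cd9 was the only one of the 7 whose samples did not overlap in this comparison, with both Auto.Neg samples lower, where 25% of all genes did not overlap (15.4% higher, 9.57% lower).

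With 1 sample each, the Edited and Non-edited samples have no replicate check. Cd9 differed by 2.51, a 5.7-fold difference, and by 2.55 with the samples in Cy5 and 2.47 with the samples in Cy3. Among the 7 tetraspanins Cd9 alone differed 2-fold or more in each dye orientation, where 1.4% of all genes were (1.22% higher, 0.172% lower in Edited). The other 6 differed by -0.34 (Cd53) to 0.06 (Cd63). Edited and Non-edited shared scan day 4 but lay on different slides.

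**Figure D3:**
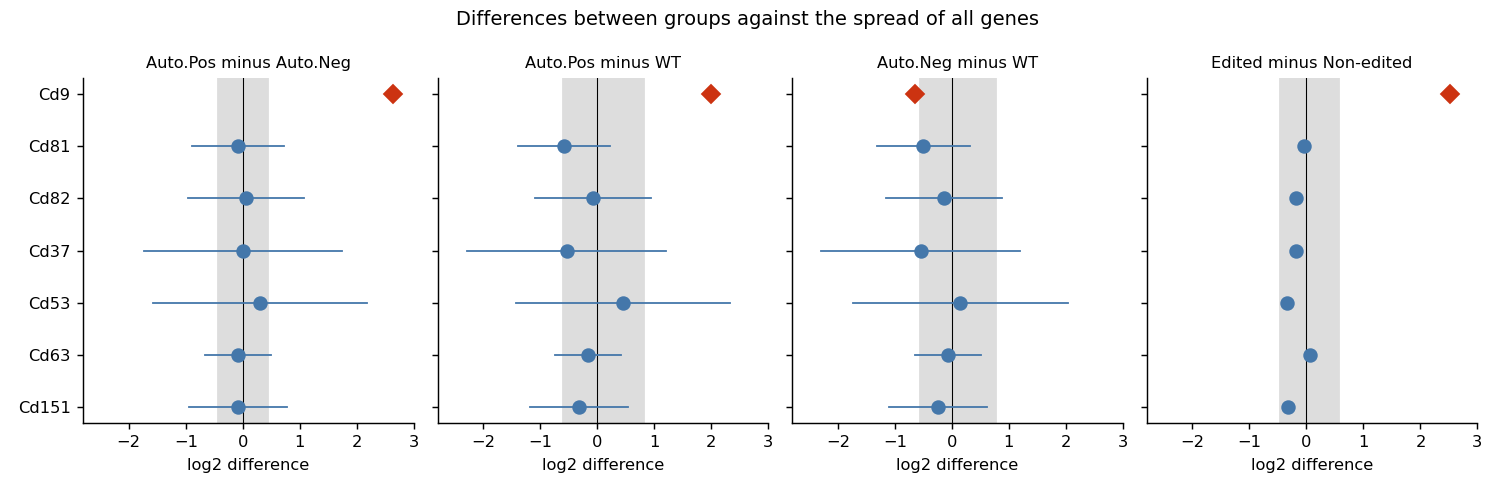
Log2 difference (horizontal axis) of each of the 7 tetraspanins in the 4 comparisons named above the panels; lines are 95% confidence intervals from limma, which are not drawn for Cd9 or for the single Edited and Non-edited samples, and the grey band holds all genes from the 5th to the 95th percentile. Cd9 (diamond) lies outside the band in each panel, while the other 6 lie inside it.

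The other Cd9 probes carried little of this signal. The AK038228 probe, well above background in the sample channel on 15 of 16 arrays and in the reference channel on 0, read 0.40 and 0.40 (Auto.Neg), 1.10 and 1.86 (Auto.Pos), 1.03 and 0.31 (WT), 0.61 (Non-edited) and 0.90 (Edited). Its Auto.Pos samples were again above both other groups, by 1.08 over Auto.Neg and 0.81 over WT, although WT sample 1 was only 0.07 below Auto.Pos sample 1. Edited exceeded Non-edited by 0.29 on this probe, against 2.51 on the mRNA probe. The AK080546 probe was well above background on 0 of 16 arrays and is given no fold.

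Cd81 read 0.38 and 0.79 (Auto.Neg), 0.66 and 0.35 (Auto.Pos), 1.43 and 0.75 (WT), 0.88 (Non-edited) and 0.83 (Edited). The Auto.Pos samples lay below both WT samples and overlapped the Auto.Neg samples. Auto.Pos differed from WT by -0.59 (95% confidence interval -1.40 to 0.22, unadjusted p = 0.124 and adjusted p = 1 by limma) and from Auto.Neg by -0.08 (-0.89 to 0.73). Cd81 was not called in either comparison, and inside the protocols its difference from WT was -0.77 (across scanners) and -0.40. In the sample channel alone Cd81 read 16.35 and 16.04 (Auto.Pos) and 16.93 and 16.3 (WT), so that the groups overlapped there.

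Of the tetraspanins found mainly on leukocytes, Cd37 read 3.97 and 2.44 (Auto.Neg), 2.52 and 3.91 (Auto.Pos), 3.57 and 3.95 (WT), 4.10 (Non-edited) and 3.92 (Edited). The low values were the 2 samples of slide 2, and the groups overlapped. Its further probe, 16 of 16 arrays well above background in both channels like the brighter one, gave differences of 0.05, -0.49 and -0.54 in the 3 comparisons, beside 0.00, -0.54 and -0.55 on the brighter probe. Both probes lie on chromosome 7 in mm7, at chr7:41411214-41411273 and chr7:41411138-41411197. In the 2 slide 2 samples the reference channel of Cd37 read 13.20 and 13.24, against 11.52 to 12.04 in the other 6, while the sample channel there read 15.65 and 15.76 within a range of 15.08 to 16.01. The low Cd37 ratios thus came with a raised reference channel. Auto.Pos and Auto.Neg had the same mean of 3.21, with a confidence interval of the difference from -1.74 to 1.74. Inside the earlier and later protocol the difference was 0.07 and -0.07. The interval comes from a fit without the protocol, so the gap between slide 2 and the other samples is part of it.

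Cd53 read 1.51 and 1.5 (Auto.Neg), 1.66 and 1.96 (Auto.Pos), 0.22 and 2.49 (WT), 2.06 (Non-edited) and 1.72 (Edited). The WT samples stood 2.27 apart and enclosed all 6 other samples. In WT sample 1 the reference channel read 11.24, against 9.90 in WT sample 2, and the sample channel read 11.46 against 12.39. Cd53 was 0.30 higher in Auto.Pos than in Auto.Neg (-1.58 to 2.18, adjusted p = 1 by limma), and the non-overlap of these groups in the ratio was not shared by the sample channel, where Auto.Neg read 11.70 and 13.02 and Auto.Pos 13.05 and 11.96. Without WT sample 1, Auto.Pos differed from WT by -0.69 in place of 0.45 and Auto.Neg by -0.99 in place of 0.15. The probe of Cd53 covers 1095 bases of chr3:106580416-106581510, so its 60 bases are not contiguous in the genome.

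The integrin partner Cd82 read 2.87 and 2.19 (Auto.Neg), 2.21 and 2.97 (Auto.Pos), 2.40 and 2.95 (WT), 3.49 (Non-edited) and 3.29 (Edited). All replicated groups overlapped, the slide 2 samples were the lowest, and Non-edited and Edited were the highest. Auto.Pos differed from Auto.Neg by 0.06 (-0.96 to 1.08) and from WT by -0.08 (-1.10 to 0.94). Inside the earlier and later protocol, Cd82 differed between Auto.Pos and Auto.Neg by 0.02 and 0.1. Cd151, the other integrin partner, read -0.17 and -0.98 (Auto.Neg), -0.81 and -0.49 (Auto.Pos), -0.48 and -0.19 (WT), -0.07 (Non-edited) and -0.39 (Edited). It was the only tetraspanin of the 7 below the reference in every sample, and it was lowest in the slide 2 samples. The Auto.Pos samples lay just below both WT samples, and the difference of -0.32 (-1.18 to 0.54) was not called. In the sample channel alone Cd151 read 11.92 and 12.64 (Auto.Pos) and 11.9 and 12.81 (WT), and the groups overlapped.

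Cd63, the endosomal tetraspanin, read 1.22 and 0.83 (Auto.Neg), 0.82 and 1.04 (Auto.Pos), 1.15 and 1.03 (WT), 0.78 (Non-edited) and 0.84 (Edited). It varied least of the 7, with a range of 0.43 and an SD over the 8 samples larger than that of 20.7% of genes. Auto.Pos differed from Auto.Neg by -0.09 (-0.67 to 0.49), which is the narrowest interval among the 6 tested genes. A difference of 2.64, as seen for Cd9, lies outside the intervals of all 6 genes between Auto.Pos and Auto.Neg. Against WT, the 1.99 of Cd9 lies inside the interval of Cd53 (-1.43 to 2.33) and, by size, that of Cd37 (-2.28 to 1.2). Cd9 was chosen by its level in Auto.Pos, so its differences serve here as marks of size only. The intervals rest on a spread that may be technical.

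**Figure D4:**
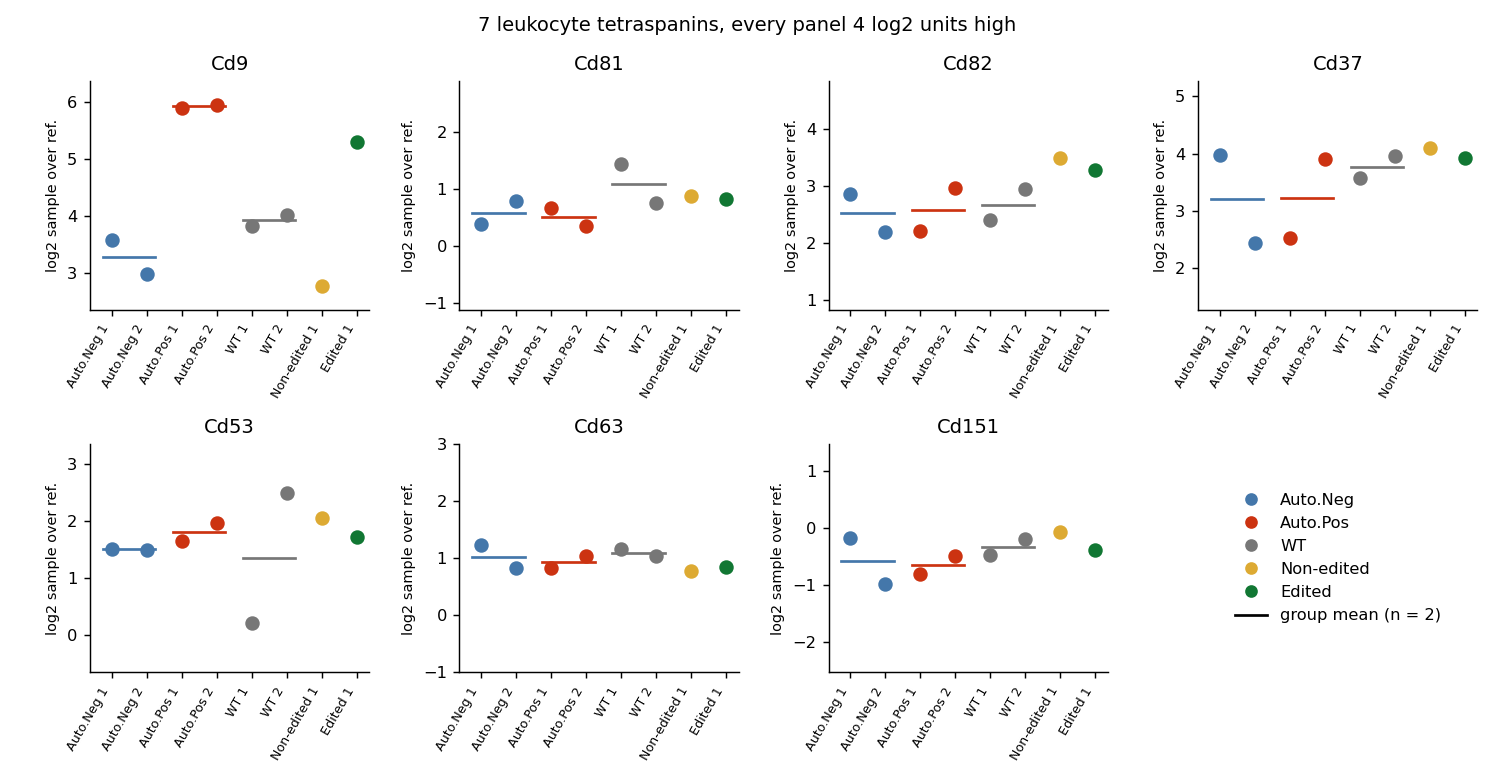
Log2 ratio of sample over reference for each of the 7 tetraspanins in the 8 samples, with all panels 4 log2 units high but at different levels, since levels of different probes are not comparable; points are samples and lines are means of the groups with n = 2. Cd9 separates Auto.Pos and Edited from the rest, Cd37 and Cd82 are low in the 2 samples of slide 2, and Cd53 is low in WT sample 1.

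Over the 6 tested genes limma called 0 in each of the 3 comparisons, with 0 at an unadjusted p under 0.05 and an adjusted p of 1 throughout. Over all genes it called 0.0147% in Auto.Pos against Auto.Neg, 3 genes that were lower, and 0% in both comparisons with WT. At an unadjusted p under 0.05 the counts over all genes were 213 (1.04%), 1151 (5.62%) and 940 (4.59%). The median difference of the 6 was -0.04 in Auto.Pos against Auto.Neg, -0.24 in Auto.Pos against WT and -0.19 in Auto.Neg against WT, beside 0.02, 0.06 and 0.04 over all genes.

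Across the 8 samples the ratios of Cd37 and Cd151 had a Pearson r of 0.93, those of Cd37 and Cd82 of 0.86 and those of Cd82 and Cd151 of 0.82. Cd9 correlated with the other 6 at -0.34 (Cd81) to 0.12 (Cd53). These are descriptions over 8 points that share slides and a reference RNA, and 2 of the points are the slide 2 samples in which Cd37, Cd82 and Cd151 were low together.

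The wider family gave no call. Of 24 other tetraspanins 23 were on the array and 20 were tested, of which 14 were well above background in the sample channel on all 16 arrays. Between Auto.Pos and Auto.Neg they differed by -0.39 to 0.35 with a median of 0.15 (0.02 over all genes), and 13 were above 0. limma called 0 of the 20 in each comparison, and 0, 2 and 2 of them had an unadjusted p under 0.05 in Auto.Pos against Auto.Neg, Auto.Pos against WT and Auto.Neg against WT. Over all genes limma called 0.0147%, 0% and 0% in these comparisons, and 1.04%, 5.62% and 4.59% had an unadjusted p under 0.05. The 5 whose group means lay furthest apart were Tspan2, Tspan15, Tspan31, Tspan13 and Tspan8. Tspan15, which escorts the protease ADAM10, read -1.98 and -2.18 (Auto.Neg), -2.13 and -2.13 (Auto.Pos) and -1.28 and -1.33 (WT), so that both transgenic groups lay below WT. Tspan2 read 1.88 and 2.53, 3.28 and 1.39, and 3.42 and 3.14 in the same order, and Tspan13 read 2.22 and 2.25, 2.49 and 1.72, and 1.60 and 1.42. Both overlapped between Auto.Pos and Auto.Neg. Tspan8 was 0.63 higher in Auto.Pos than in WT and Tspan31 0.67 higher, and neither was called.

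Among 17 proteins known to bind tetraspanins, such as CD21 (Cr2), integrin chains and the ADAM proteases, 17 were tested and limma called 0 in each comparison. Of all genes limma called 0.0147%, 0% and 0%. Unadjusted p by limma was under 0.05 for 0, 2 and 1 of the 17, beside 1.04%, 5.62% and 4.59% of all genes. The median difference of the 17 was 0.00 in Auto.Pos against Auto.Neg, 0.02 in Auto.Pos against WT and 0.04 in Auto.Neg against WT. Over all genes the medians were 0.02, 0.06 and 0.04. The 5 with the widest group means were Clec7a, Itga4, Adam17, Cr2 and Cd44. Itga4, the alpha chain of the VLA-4 integrin, read 3.33 and 3.68 (Auto.Neg), 4.83 and 3.97 (Auto.Pos), 3.68 and 2.55 (WT), 4.21 (Non-edited) and 3.61 (Edited). It was higher in both Auto.Pos samples than in the Auto.Neg and WT samples but, unlike Cd9, lower in Edited than in Non-edited. Clec7a, the beta-glucan receptor Dectin-1, which CD37 and CD63 bind, read 2.45 and 2.83 (Auto.Neg), 4.17 and 3.09 (Auto.Pos) and 4.50 and 4.79 (WT). Cr2 was lower in Auto.Pos than in WT by 0.73 and Adam17 by 0.77, and Cd44 differed by -0.54 between Auto.Pos and Auto.Neg.

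Of 2464 genes with an SD of at least 0.5 times that of Cd9, the 5 whose ratios followed Cd9 most closely over the 8 samples were AK048651 (Pearson r = 0.93), Nod1 (0.898), Faah (0.889), ENSMUST00000066275 (0.879) and BF578595 (0.867). Nod1, a cytosolic receptor for bacterial peptidoglycan, read 2.89 and 3.23 (Auto.Neg), 5.45 and 5.08 (Auto.Pos), 4.04 and 3.66 (WT), 1.60 (Non-edited) and 4.07 (Edited). Its Auto.Pos samples were the highest and its Non-edited sample the lowest, as for Cd9. Faah, which degrades fatty acid amides, read 0.37 and -0.24, 1.05 and 2.34, and -0.12 and 0.07 in these groups, then -0.16 and 1.21. ENSMUST00000066275 is described as similar to a kappa chain variable region and may share signal with its relatives, and AK048651 and BF578595 are cDNA clones without a gene name in the tables used. The 5 genes were picked for following Cd9 in these same samples, so their likeness to it follows from the choice. The 8 points share the reference and, in part, slides and scan days.

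Platelets, marginal zone B cells, B-1 cells and plasma cells, which carry Cd9, were followed by their markers. Markers of further cell types were measured and are not described. Of 19 tested platelet and megakaryocyte markers 18 were higher in Auto.Pos than in Auto.Neg, with a median difference of 0.62, 10 of them without overlap between samples (11.1% of all genes) and 0 called by limma (3 at an unadjusted p under 0.05). Against WT 18 of the 19 were also higher in Auto.Pos, with a median of 0.52, 6 of them without overlap (19.2% of all genes) and 0 called by limma (4 at an unadjusted p under 0.05). Ppbp, the platelet basic protein, read 2.63 and 2.91 (Auto.Neg), 6.86 and 4.06 (Auto.Pos), 2.95 and 4.93 (WT), 1.11 (Non-edited) and 1.95 (Edited). Myl9 read 5.60 and 2.93 and Clec1b, the podoplanin receptor CLEC-2, 4.04 and 2.04 (Auto.Pos). The mean of the 19 markers was 0.16 and 0.33 (Auto.Neg), 1.99 and 0.51 (Auto.Pos), -0.05 and 0.79 (WT), -0.27 (Non-edited) and -0.26 (Edited), and 10 of them were well above background on all 16 arrays. Their summed sample channel intensity was 72266 in Auto.Pos sample 1 and 24915 in Auto.Pos sample 2, and it ran from 20901 to 37943 in the 6 samples of other groups. The part of platelets in the level of Cd9 was not tested.

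Marginal zone markers, 11 tested, had a mean of 0.11 and 0.51 (Auto.Neg), 0.72 and 0.43 (Auto.Pos), 1.01 and 0.72 (WT), 1.05 (Non-edited) and 1.73 (Edited). The Edited sample was the highest, and the Auto.Pos samples lay at or below the WT samples. Against Auto.Neg 8 of the 11 were higher in Auto.Pos, with a median of 0.29 and 0 called by limma, 0 also at an unadjusted p under 0.05. Against WT 4 were higher and 7 lower, with a median of -0.21, 3 of them lower without overlap (10.4% of all genes). Of these 11, Cr2 (-0.73) and S1pr3 (-1.49) had an unadjusted p under 0.05 by limma against WT, and 0 were called. Cr2 was also lower in both Auto.Pos samples than in both Auto.Neg samples (-0.33). Fcrl5 read 0.81 and 0.38 (Auto.Neg), 1.15 and 1.51 (Auto.Pos), 1.81 and 0.27 (WT), 1.42 (Non-edited) and 3.14 (Edited). Its WT samples lay on both sides of the Auto.Pos samples. Tm6sf1 and Dtx1 differed by 0.75 and 0.68 between Auto.Pos and Auto.Neg. The part of marginal zone cells in the Edited value of Cd9 was not tested.

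The 6 tested B-1 markers had a mean of -1.49 and -1.49 (Auto.Neg), -1.29 and -1.59 (Auto.Pos), -1.41 and -1.44 (WT), -2.0 (Non-edited) and -1.41 (Edited). Their median difference between Auto.Pos and Auto.Neg was 0.05. Cd5, the defining surface marker of B-1a cells, read -1.92 and -2.27 (Auto.Neg), -1.77 and -2.03 (Auto.Pos) and -2.45 and -1.75 (WT). Between Auto.Pos and Auto.Neg, Plscr1 differed by 0.42 and Zbtb32 by -0.22. Between Edited and Non-edited, Plscr1 differed by 0.94, Zbtb32 by 0.58 and Cd5 by -0.09. The 5 plasma cell markers had a mean of -2.30 to -1.17, with 0 called by limma in each comparison. In Auto.Pos against Auto.Neg 1 of them had an unadjusted p under 0.05 and the median difference was 0.06, and against WT, where all 5 were below 0 with a median of -0.68, 2 did (Jchain and Sdc1). The part of B-1 and plasma cells in the level of Cd9 was not tested.

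**Figure D5:**
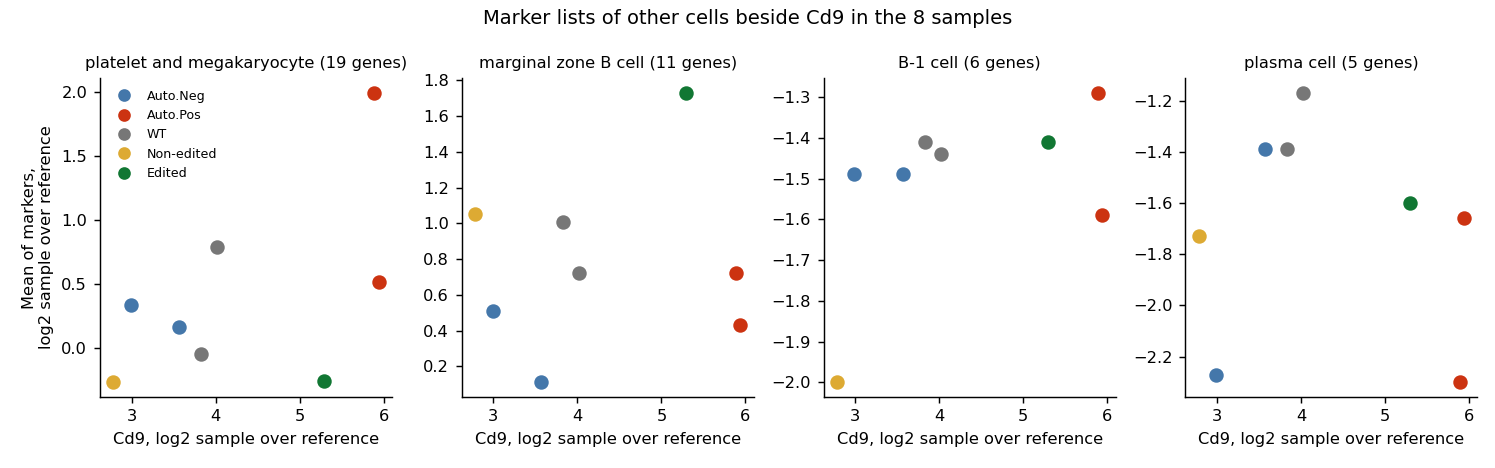
Mean log2 ratio of the markers of platelets, marginal zone B cells, B-1 cells and plasma cells (vertical axes, which differ in range) against the log2 ratio of Cd9 (horizontal axis) in the 8 samples, coloured by group. The platelet mean is high in 1 Auto.Pos sample (1.99) and low in the Edited sample (-0.26), and the marginal zone mean is highest in the Edited sample (1.73).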

How the data were processed

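The input was 100 ng of total RNA, amplified and dye-labelled, per the labels' protocols, with a dye-swap pair of arrays for every sample against the reference. Spot and background intensity in both channels was written by Agilent Feature Extraction 9.1.1.1, 9.1.3.1 or 9.5.1.1, per the file headers. The log10 ratios deposited in the same files and the deposited log2 series table served as alternatives. The submitters' processing notes name limma for the table, without a version. Its columns were set against the arrays: 6 of 16 matched their own array and 10 another, at absolute correlations of 0.944 to 0.996. It was read by its labels, with 2 columns that ran reference over sample turned, and 0 columns belong to no sample. Its scale is log2 with medians near 0, and the steps behind it are not stated in the labels or headers.

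In R 4.3.3 with limma 3.58.1, mean foreground was corrected for median background (normexp, offset 50) and normalized by loess with controls at weight 0, leaving out outlier spots. The dim probe filter asked for a sample channel well above background on both arrays in 2 or more samples (29637 probes). Each gene was represented by its brightest kept probe, 358 gene-by-sample values rested on 1 array, and 6 genes lacked a sample. No spot of the 7 tetraspanins was dropped. Probes were named by accession (23082), file name (8437), symbol (6582) or synonym (3073) through RefSeq GRCm38.p6. One mean per group was fitted to 8 samples (3 residual and 2.11 prior degrees of freedom) with Benjamini-Hochberg adjustment over all genes, and genes under 0.05 were called. The fit was tested on simulated data with independent noise in each sample. These data held no effect of slide, scanner or protocol, so the test does not cover such effects. Named genes were the 7 tetraspanins, the 5 of each related list with the widest group means, the 3 of the platelet, marginal zone and B-1 lists with the largest Auto.Pos to Auto.Neg difference, and the 5 most like Cd9. Jchain, Sdc1, Cr2 and S1pr3 were also named as markers with an unadjusted p under 0.05 by limma against WT. The members and lists were chosen with earlier results of these data known. Markers of 7 further cell types were measured and are not described.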

Additional observations from a re-analysis of the deposited data

How the results depend on the processing

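Cd9 was higher in Auto.Pos than in Auto.Neg and than in WT in all 22 alternatives, of which 8 in each comparison, such as blocks, probe filters, scaling of mean intensity between arrays and leaving out a sample of the third group, do not enter its value and left it as it was. It was higher in Edited than in Non-edited in 12 alternatives, 3 of which left its value as it was. limma called none of the other 6 genes in any of the 22 alternatives, with adjusted p of 0.2023 or more. The sign of most of their differences is not settled, and not all of these differences stayed small. No group has more than 2 samples, and the reference channel of Cd9 is not above background, which limits the precision of its ratio. The block on extraction protocol, the fit without slide 2 and the sample channel alone were chosen after seeing the data. A random slide block could not be fitted (0 of 2000 genes gave a correlation). The cause of the changes below was not tested.

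Values in this paragraph are log2 differences. For Auto.Pos against Auto.Neg, Cd9 was 2.264 with offset 0, 2.271 with median centring, 1.924 with the scanner's log ratio, 0.409 in the series table by its labels, 1.858 as the mean of kept probes, 2.232 on Cy5 sample arrays, 3.044 on Cy3 sample arrays, 2.304 in the sample channel and 2.375 without slide 2. Cd37 turned to -0.004 without background subtraction, -0.012 with offset 0, -0.124 with median centring, -0.188 on Cy3 arrays and -0.067 without slide 2. Cd82 turned to -0.097 with median centring and -0.126 on Cy3 arrays, Cd81 to 0.015 on Cy5 arrays and Cd151 to 0.058 in the sample channel. The series table turned Cd81 to 0.198, Cd53 to -0.481, Cd63 to 0.386 and Cd151 to 0.412. Cd37 kept its sign there but moved from 0.003 to 1.266.

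For Auto.Pos against WT, Cd9 was 2.307 with offset 0, 1.657 with median centring, 0.683 in the series table, 1.401 as the mean of kept probes, 1.276 on Cy5 arrays and 2.71 on Cy3 arrays. The series table turned Cd81 to 0.328 and Cd53 to -0.981, and Cy5 arrays turned Cd82 to 0.031. The sample channel turned Cd82 to 0.275, Cd37 to 0.33 and Cd63 to 0.297, and the fit without slide 2 turned Cd82 to 0.299 and Cd37 to 0.15. For Auto.Neg against WT, Cd9 was -0.359 without background subtraction, 0.043 with offset 0, 0.187 with the scanner's log ratio, 0.275 in the series table, -0.955 on Cy5 arrays, -0.335 on Cy3 arrays, -0.348 in the sample channel and -0.357 without slide 2. Cd63 turned to 0.017 without background subtraction, 0.061 with offset 0, 0.011 on Cy3 arrays, 0.392 in the sample channel and 0.125 without slide 2. The series table turned Cd81 to 0.13 and Cd53 to -0.5. Cd37 kept its sign there but moved from -0.548 to -1.479. The sample channel turned Cd82 to 0.078 and Cd37 to 0.265, and without slide 2 the values were 0.196 for Cd82, 0.217 for Cd37 and 0.165 for Cd151. Edited minus Non-edited for Cd9 was 1.4 as the mean of kept probes.

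Leaving out 1 sample at a time, Cd9 ran from 2.35 to 2.926 in Auto.Pos against Auto.Neg and from -0.933 to -0.357 in Auto.Neg against WT. In Auto.Pos against Auto.Neg the ranges were -0.292 to 0.126 for Cd81, -0.32 to 0.44 for Cd82, -0.761 to 0.767 for Cd37, -0.287 to 0.102 for Cd63 and -0.485 to 0.328 for Cd151. Against WT, Auto.Pos gave -0.462 to 0.299 for Cd82, -1.24 to 0.15 for Cd37 and -0.685 to 1.59 for Cd53. Auto.Neg gave -0.479 to 0.196 for Cd82, -1.312 to 0.217 for Cd37, -0.989 to 1.285 for Cd53, -0.264 to 0.125 for Cd63 and -0.648 to 0.165 for Cd151. A group left with 1 sample is assumed to vary like the others.

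Genes called by limma in Auto.Pos against Auto.Neg, 3 in the report, numbered 1 with median centring, 12 on Cy5 arrays, 12 in the sample channel and 6 with the extraction protocol as block. They numbered 0 in the series table, with no filter, on Cy3 arrays, without slide 2 and without any 1 sample (2113, 365, 224, 290 and 135 to 446 at an unadjusted p under 0.05). Against WT, where 0 genes were called, Auto.Pos gave 15 with the scanner's log ratio, 72 on Cy5 arrays and 58 in the sample channel, and Auto.Neg gave 60 on Cy5 arrays and 45 in the sample channel. With the replicate block, 0 genes were called (130 at an unadjusted p under 0.05), and the difference of Cd9 is 2.638 with or without it, since each number occurs once in each group. Samples of 1 number deviated with a correlation of -0.788 between Auto.Neg and Auto.Pos, -0.279 between Auto.Neg and WT and 0.252 between Auto.Pos and WT, so the numbers do not pair the samples. The crossed pairing of Auto.Neg and Auto.Pos is the extraction protocol block given above.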
